A study of Mus musculus with 27 samples.

Results

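Microglia from germ-free (GF) mice and from mice given an antibiotic cocktail (ABX) were compared at day 7 after intracerebral hemorrhage (ICH). The comparison takes every library labelled GF or ABX with collagenase at day 7, 3 of each, which is 6 of the 27 libraries of the series. All mice are labelled wild-type, and in both groups collagenase, an enzyme that breaks vessel walls, was used to cause the bleed. The GF group is labelled as kept in germ-free condition and the ABX group as treated with the cocktail; the drugs, the dosing, the age of the mice and any pooling of animals are not given in the sources used here. Cells were sorted by flow cytometry as microglia from brain tissue next to the hematoma, and the labels do not name the sort markers. For context the report also uses GF and ABX libraries of ICH day 3 and of sham surgery at day 7, and the libraries of mice with a normal specific pathogen-free (SPF) flora at ICH day 7, again 3 of each.

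Microglia are the resident macrophages of the brain. After a bleed they take up red cells and debris, break them down in lysosomes and store the released iron in ferritin. Gut microbes supply short-chain fatty acids and other signals that bear on microglial maturation. A germ-free animal lacks microbes from birth, whereas antibiotics deplete a flora that was present before, so the design sets these models side by side in the same injury.

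Levels below are CPM (the count scaled to a common library total) after TMM scaling, listed for replicates 1, 2 and 3 in that order. A log2 fold change is GF minus ABX, given ± SE from the quasi-likelihood fit of edgeR over all 27 libraries, and a gene is called at an adjusted p below 0.05. No label says whether replicates came from separate animals, so p-values measure only the spread between these samples, which may be technical.

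The microglia label was checked against markers first. All 20 homeostatic microglia genes had counts in each of the 6 libraries, and their summed level was 109400, 149200 and 111800 CPM in GF against 241600, 123400 and 145800 CPM in ABX libraries. The purinergic receptor gene P2ry12, a defining microglial marker, stood at 8721, 15048 and 11458 CPM in GF and at 18484, 7226 and 8431 CPM in ABX libraries. The groups overlapped, and the fold change of P2ry12 was 0.05 ± 0.35 (edgeR adjusted p = 1), a sign that turned with other settings. Choroid plexus markers, which mark the epithelium that secretes cerebrospinal fluid, were also present, at 608 to 16100 CPM summed in GF and 1374 to 8201 CPM in ABX libraries. In such bulk samples fewer cells of a type and less RNA per cell cannot be told apart.

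The 6 libraries held 44279690 to 72415932 counts, but few genes. At least 1 count was seen for 9906 ± 997 genes in GF and for 11800 ± 2135 genes in ABX libraries (SD, n = 3 each; two-sided exact permutation p = 0.3). The mitochondrial share of counts was 4.71 ± 1.51% in GF against 2.96 ± 0.88% in ABX libraries, with no overlap (exact permutation p = 0.1, the smallest that 3 against 3 allows). Genes of high GC content were underrepresented more in GF libraries: the median centred log2 level of abundant genes in the top GC quintile minus that in the bottom one was −2.13 ± 0.59 against −0.79 ± 0.20, again with no overlap (exact permutation p = 0.1). ABX replicate 1 had the lowest TMM factor of the 6, 0.476, and its scaled levels are the highest of the 6 for many genes below. The part of these differences in the results was not tested, except that the closing section gives the calls with offsets for GC content.

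**Figure D1:**
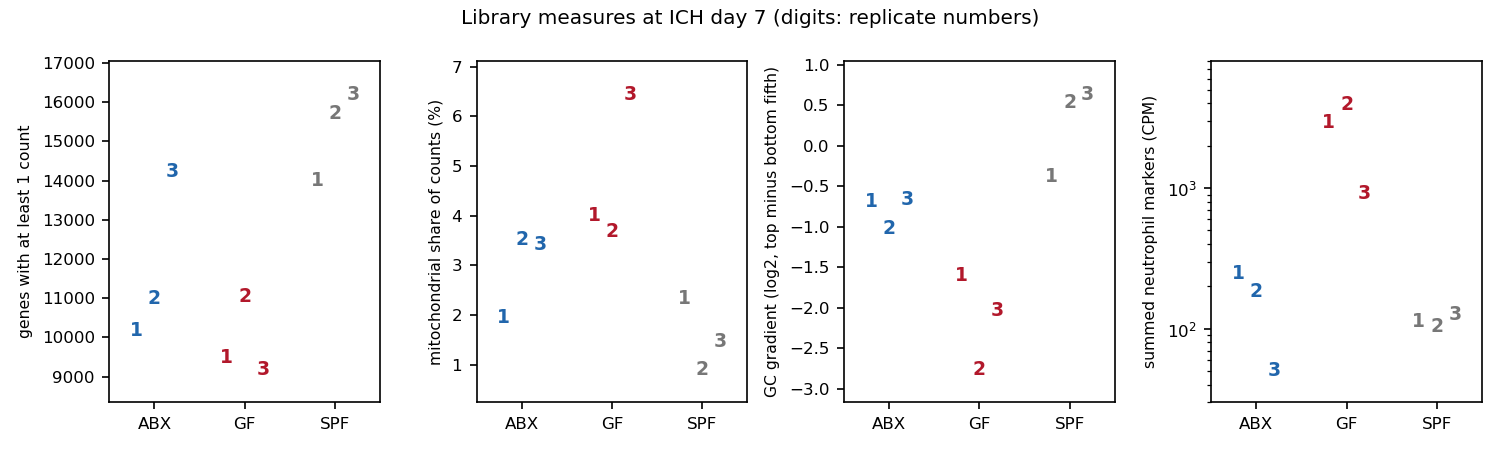
Detected genes, mitochondrial share of counts (%), GC gradient (log2) and summed neutrophil markers (CPM, log scale) in each ICH day 7 library; each digit is the replicate number of 1 library and colours mark the groups. GF libraries lie apart from ABX libraries in the last 3 measures, with summed neutrophil markers from 920 to 3917 CPM in GF and from 50.6 to 249 CPM in ABX libraries.

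The difference between GF and ABX microglia at day 7 was mostly one of lower levels in GF. Of 17573 genes tested, 149 were higher (0.848%) and 1023 were lower (5.82%) in GF, and 4250 had an unadjusted p below 0.05. The median log2 fold change of all tested genes was −0.44, or −0.33 with genes at 0 counts in 1 group set to their bound against 3 counts per library, and changes below are to be read against it. These counts rest on the estimate of spread that all 9 groups share. An edgeR fit of the 6 libraries alone called 1 gene, Ctsb, with 1741 at an unadjusted p below 0.05, limma voom with quality weights called 3 higher and 53 lower, and DESeq2 called 1703 higher and 3557 lower, so that 32.4% of the calls of DESeq2 were higher in GF against 12.7% in the edgeR fit. Single libraries mattered too: the higher count was 62 without ABX replicate 1, 384 without ABX replicate 3 and 234 without GF replicate 2, and the lower count was 619 without GF replicate 3. All 3 GF libraries lay above all 3 ABX libraries for 363 genes (2.07%) and below them for 1587 genes (9.03%).

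Most called genes were near absence in 1 group. Of the 1023 genes lower in GF, 844 were under 1 CPM in all 3 GF libraries and 223 had 0 counts there. Among all 17573 tested genes these numbers were 9913 and 5137. The median level of the lower genes was 0.109 CPM in GF, 50.5 CPM in ABX and 22.0 CPM in SPF libraries. Of the 149 higher genes, 51 were under 1 CPM in all 3 ABX libraries (7901 of all tested genes were). Their medians were 79.3 CPM in GF, 1.00 CPM in ABX and 21.4 CPM in SPF libraries. Of the lower genes, 941 lay below all SPF libraries in all GF libraries (4285 of all 17573 tested genes did). Of the higher genes, 135 lay below all SPF libraries in all ABX libraries (3245 of all tested genes did). These are the same GF and ABX values that the calls use. Among the 176 genes with a mean over 1000 CPM in the 6 libraries, 1 was higher and 24 were lower.

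**Figure D2:**
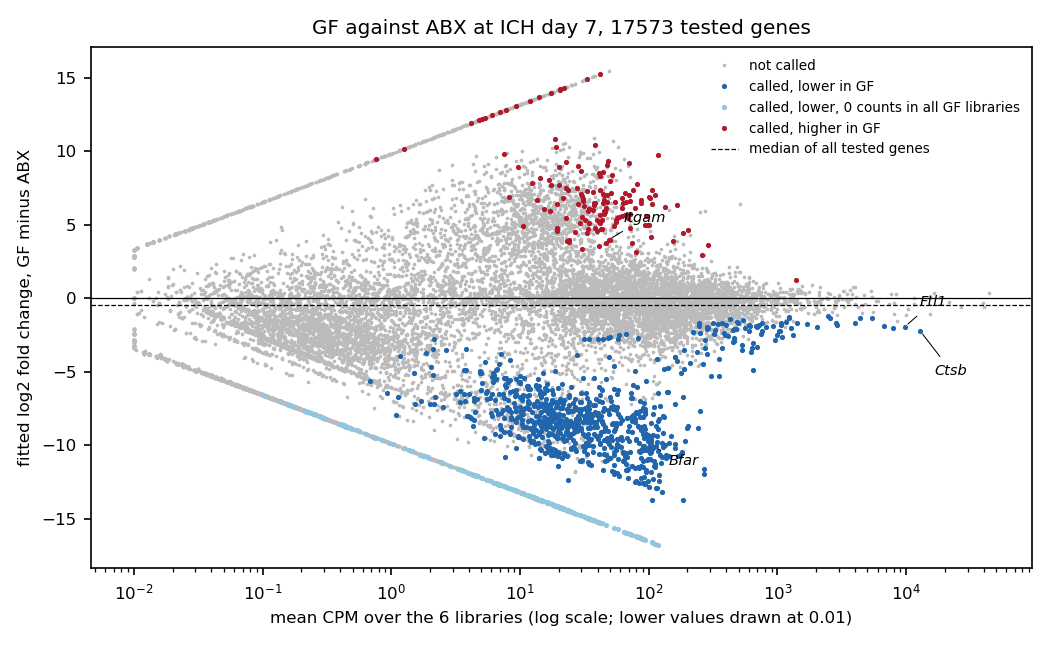
Fitted log2 fold change (GF minus ABX, ICH day 7) against mean CPM over the 6 libraries (log scale) for each tested gene; blue points are called lower, pale blue ones have 0 counts in all GF libraries, and red points are called higher. Called genes form a cloud near absence in 1 group and a narrow band of abundant genes lower in GF, with Ctsb at −2.20 and Ftl1 at −1.93; the lines of points at the edges are genes at 0 counts in 1 group, whose fitted values are no measure of size.

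Lysosomal genes held the most calls of any list in the edgeR fit, though not with DESeq2, which called 7 of them and 11 cell cycle genes. Of 18 lysosomal proteases and membrane proteins, 7 were lower in GF (5.82% of all genes were) and 0 were higher, and none had a fold change above 0. The list median was −1.04 against −0.44 for all genes, and between −0.58 and −0.53 with genes of at least 100 CPM, in the 6 libraries alone and with limma voom. The median of all genes was 0.00 in the first 2 of these and −0.72 with limma voom, below that of the list. With GC offsets, of these 7 calls only Ctsb was kept, and the list held 4 calls in all. These offsets overshot in this contrast: the rank correlation of GC content with fold change turned from −0.385 to 0.246 over abundant genes. The list without ABX replicate 1 held 3 calls, without GF replicate 1 also 3 and without GF replicate 3 held 4.

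Ctsb, the cysteine protease cathepsin B (chromosome 14, 63122462 to 63145923 on the plus strand of mm10), stood at 5100.3, 3316 and 5337 CPM in GF libraries and at 32426, 10813 and 19946 CPM in ABX libraries. Every GF library lay below every ABX library, and SPF libraries at 14868, 14836 and 18432 CPM lay among the ABX values. The fold change was −2.20 ± 0.34 (edgeR adjusted p = 0.000815), a ratio of means of 4.59. It was called without each of the 6 libraries in turn (edgeR adjusted p up to 0.00366) and in the fit of the 6 libraries alone (edgeR adjusted p = 0.0272), but not with limma voom (adjusted p = 0.662) or in the 6 libraries with genes under 100 CPM left out (edgeR adjusted p = 0.446).

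Hexa, which encodes the alpha chain of the lysosomal enzyme hexosaminidase, stood at 487, 323 and 399 CPM in GF and at 2012, 1153 and 1177 CPM in ABX libraries, −1.85 ± 0.38 (edgeR adjusted p = 0.00602). Lgmn, the asparaginyl protease legumain, stood at 3442, 2099 and 3547 CPM against 11685, 4448 and 7201 CPM, −1.36 ± 0.32 (edgeR adjusted p = 0.0128), and was not called without ABX replicate 1 (edgeR adjusted p = 0.0816). For both genes the groups did not overlap. Laptm5, a lysosomal membrane protein of blood-derived cells, was lower by −2.23 ± 0.55, Grn, the progranulin precursor of lysosomal granulins, by −1.94 ± 0.51, and Ctsa, a serine carboxypeptidase, by −1.69 ± 0.47 (edgeR adjusted p = 0.0165, 0.0234 and 0.0313). Ctsz, cathepsin Z, passed at −1.31 ± 0.39 (edgeR adjusted p = 0.0456) although 1 ABX library at 1297 CPM lay within the GF range of 1131 to 1679.5 CPM, and it was called under 3 of 17 other settings. Ctss, the cysteine protease cathepsin S, stood at 32893, 44204 and 29733 CPM in GF against 57850, 35282 and 38811 CPM in ABX libraries, −0.30 ± 0.27 (edgeR adjusted p = 0.516), with overlap.

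A promoter motif of lysosomal genes was looked up because several members of the list were lower together. The core TCACGTG, or CACGTGA on the other strand, which overlap as TCACGTGA, is part of the element that the lysosomal regulator TFEB binds. RefSeq promoter windows (GRCm38.p6, 250 bases before the start) matched 14 of the 18 genes. The core was in 4 of these 14 (Ctsa, Ctsd, Lamp1 and Lgmn), in 2 of the 6 matched genes called lower and in 2 of the other 8. It was in 3.13% of all 32851 windows. That share is per window, whereas a gene counted if any of its windows held the core. The windows of the called genes are shown 5′ to 3′ on the gene's strand, with the core in capitals, at chr2:164833740-164833772 (plus) for Ctsa and chr12:102439116-102439162 (minus) for Lgmn.
Ctsa: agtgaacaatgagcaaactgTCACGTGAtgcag
Lgmn: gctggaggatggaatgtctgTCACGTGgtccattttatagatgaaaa
The match is a description of these letters, and the motif was chosen with the calls known.

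Iron storage genes were next. Ftl1, the ferritin light chain (chromosome 7, 45457944 to 45459884, minus strand), stood at 4743, 2820.3 and 4567 CPM in GF and at 21028, 6242 and 19003 CPM in ABX libraries. The groups did not overlap, and the fold change was −1.93 ± 0.38 (edgeR adjusted p = 0.00508). Reads of ferritin genes can be shared with near-identical copies, which makes this level uncertain. Fth1, the heavy chain, stood at 5198, 8719 and 9086 CPM against 14719, 9692 and 14099 CPM, also without overlap, but did not pass at −0.74 ± 0.32 (edgeR adjusted p = 0.151). Hmox1, heme oxygenase that opens the heme ring, stood at 1.43, 56.4 and 0.67 CPM against 474, 5.02 and 227 CPM, with overlap, −3.59 ± 1.21 (edgeR adjusted p = 0.0721). Over the 21 heme and iron genes tested, Ftl1 was the 1 gene called, a share no higher than the 5.82% of all genes, and the median was −0.74.

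Among homeostatic genes, which mark resting microglia, 5 of 20 were lower, against 5.82% of all genes, and 0 were higher. The median was −0.59, but −0.11 both in the 6 libraries alone and with genes of at least 100 CPM. Cx3cr1, the fractalkine receptor, stood at 840.4, 474 and 217 CPM in GF and at 3681, 1117 and 1287 CPM in ABX libraries, −1.99 ± 0.46 (edgeR adjusted p = 0.0109). Csf1r, the receptor that microglia need to survive, stood at 227, 161 and 4.48 CPM against 2157, 571 and 1077 CPM, −3.28 ± 0.88 (edgeR adjusted p = 0.0258). Both genes had no overlap between groups, and neither was called without ABX replicate 1 (edgeR adjusted p = 0.0881 and 0.0888), nor Cx3cr1 without GF replicate 3. Olfml3, a secreted microglial protein, was lower at −1.97 ± 0.38, C1qa, a chain of complement C1q, at −1.67 ± 0.39, and Sparc, a matrix protein, at −1.62 ± 0.46 (edgeR adjusted p = 0.00435, 0.013 and 0.0357). With GC offsets C1qa, Csf1r and Sparc were not called, while Cx3cr1 and Olfml3 were. Without ABX replicate 1 the list held 1 call and without GF replicate 3 it held 2. Tmem119, a surface marker, at −0.40 ± 0.67, Gpr34, a lysophospholipid receptor, at 0.28 ± 0.33 and Cst3, the protease inhibitor cystatin C, at −0.55 ± 0.26 did not pass (edgeR adjusted p = 0.826, 0.665 and 0.19). Of the 20 members, 3 had a fold change above 0, and called members were not tested against the others. P2ry12, Gpr34 and Tmem119 overlapped between groups. With GC offsets P2ry12 turned to −1.09 and Gpr34 to −0.72, while Tmem119 and Cst3 turned above 0.

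**Figure D3:**
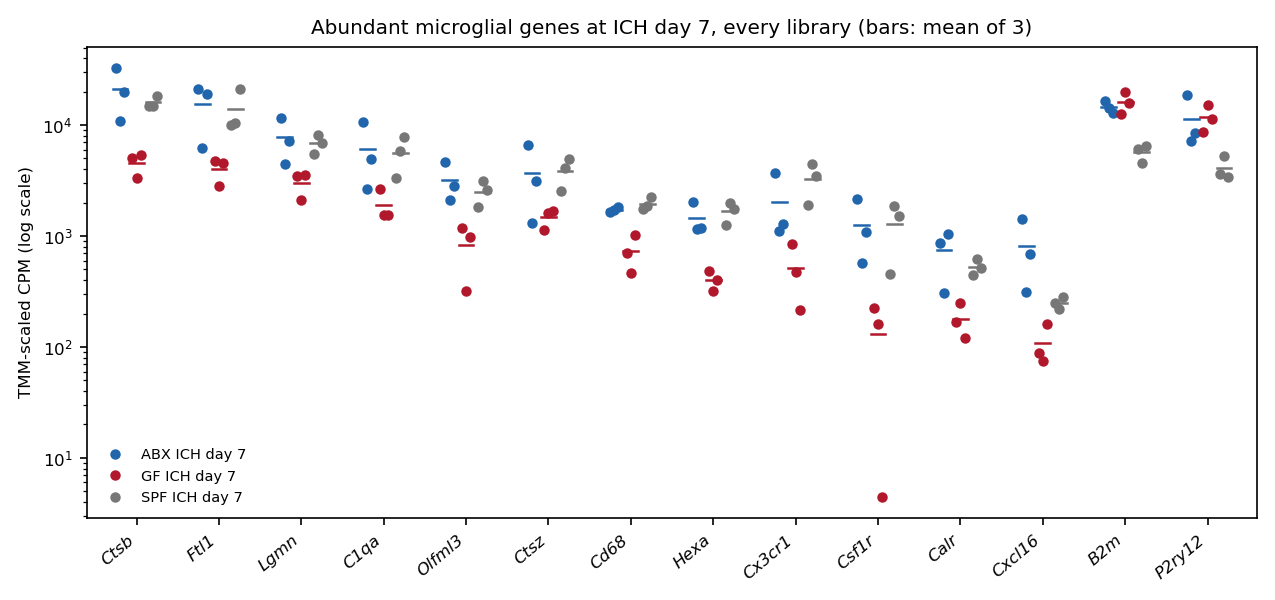
CPM after TMM scaling (log scale) of 14 abundant genes in each ICH day 7 library, with a bar at the mean of 3; blue is ABX, red is GF and grey is SPF. The 12 genes at the left were all called lower, so their separation largely follows from the choice. GF libraries lie below all ABX libraries for 11 of these 12, Ctsz being the exception (9.03% of all tested genes do). B2m and P2ry12 at the right overlap, and other abundant genes that overlap, such as Apoe, Trem2 and Spp1, are not shown.

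Of 21 disease-associated genes, which microglia raise around damage, 3 were lower (Ctsb, Ctsz and Cd68) and 0 were higher, with a median of −0.58. Lower were 5.82% of all genes, 6.44% of those at 100 to 1000 CPM and 13.6% of those over 1000 CPM. The share in the list was thus close to that of the most abundant genes. Of the 3, 2 are also in the lysosomal list. Cd68, a lysosomal membrane protein of phagocytes, stood at 699, 461 and 1018 CPM in GF and at 1643, 1699 and 1817 CPM in ABX libraries, without overlap, −1.24 ± 0.29 (edgeR adjusted p = 0.0122). It was not called with GC offsets, without a filter on low counts or with genes of at least 100 CPM, and of the 3 calls only Ctsb was kept with GC offsets. The lipid carrier gene Apoe stood at 4315, 3619 and 5338 CPM against 21812, 4864 and 10888 CPM and missed the threshold at −1.50 ± 0.47 (edgeR adjusted p = 0.056), with overlap. Trem2, a lipid-sensing receptor, at −0.81 ± 0.41, Spp1, osteopontin, at −0.21 ± 0.54, and Tyrobp, the adaptor of Trem2, at 0.13 ± 0.31 did not pass (edgeR adjusted p = 0.231, 0.962 and 0.949), and the sign of Spp1 turned under other settings. The 3 calls were lysosomal proteins, while Apoe, Trem2, Spp1 and Tyrobp overlapped between groups.

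Genes of antigen presentation by class I molecules were lower in 3 of 15, against 5.82% of all genes, and higher in 0, with a median of −1.10. Calr, a chaperone that loads class I molecules, stood at 168, 249 and 119 CPM in GF and at 868, 304 and 1051 CPM in ABX libraries, −2.05 ± 0.40 (edgeR adjusted p = 0.00404). H2-K1, a class I heavy chain, was lower at −1.50 ± 0.42 and H2-Q7, a nonclassical one, at −7.02 ± 1.85 (edgeR adjusted p = 0.0321 and 0.0231); class I genes are close in sequence, so reads may be split between them. H2-K1 was not called with GC offsets or with genes of at least 100 CPM, and neither gene was without a filter on low counts. B2m, the light chain, stood at 12494, 20023 and 15732 CPM against 16397, 14238 and 12911 CPM and overlapped, 0.15 ± 0.27 (edgeR adjusted p = 0.852), but was lower with GC offsets, at −0.94 (edgeR adjusted p = 0.0348). Of 9 class II genes 0 passed, with H2-Ab1, a class II chain, at −0.74 ± 0.79 (edgeR adjusted p = 0.623).

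Of 23 interferon response genes, 2 were lower, a share close to the 5.82% of all genes, and 0 higher, with a median of −1.14. Usp18, a brake on interferon signalling, stood at 0.17, 0.51 and 0 CPM in GF and at 877, 171 and 25.6 CPM in ABX libraries, −10.61 ± 1.84 (edgeR adjusted p = 0.00208). Stat2, a transcription factor of the pathway, rests on ABX replicate 3 at 96.7 CPM, since the other two ABX libraries had 0 counts; the 3 counts in GF give a ratio of 1532 (95% Poisson interval 524 to 7430.5, for counting error only), and without that library it was not called and its sign turned. Ifitm3, an antiviral membrane protein, at −0.69 ± 0.78 did not pass (edgeR adjusted p = 0.648). Ifit2, an antiviral factor, ranged widely within each group, at 495, 0.15 and 229 CPM in GF and 1855, 20.4 and 487 CPM in ABX libraries, and did not pass (−1.71 ± 1.41, edgeR adjusted p = 0.482).

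Among 16 cytokine and chemokine genes, 1 was lower, a share close to the 5.82% of all genes, and 0 were higher, with a median of −0.20. Cxcl16, a chemokine that draws T cells, stood at 88.6, 74.0 and 162 CPM in GF and at 1422, 315 and 683 CPM in ABX libraries, without overlap, −2.90 ± 0.60 (edgeR adjusted p = 0.00618). Il1b, the inflammatory cytokine interleukin 1 beta, went the other way, at 162, 39.3 and 158 CPM against 0.66, 0.04 and 3.75 CPM. All GF libraries of Il1b lay above all ABX libraries, but at 6.33 ± 2.08 it did not pass (edgeR adjusted p = 0.0664). Tnf, at 0, 24.5 and 0 CPM in GF, and Ccl12, a monocyte chemokine at −0.58 ± 0.55, did not pass (edgeR adjusted p = 0.451 and 0.556).

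Neutrophil markers were high in GF libraries. Their summed level over 12 genes was 2917, 3917 and 920 CPM in GF, 249, 185 and 50.6 CPM in ABX and 104 to 126 CPM in SPF libraries. Of 10 tested, 0 passed, 5 had all GF libraries above all ABX libraries (2.07% of all genes did), and the median was 7.32. S100a8, a calcium-binding protein abundant in neutrophils, stood at 1131, 1512 and 419 CPM in GF and at 0, 0.20 and 34.5 CPM in ABX libraries, 6.46 ± 2.53 (edgeR adjusted p = 0.12). Of the 12 markers, 3 to 5 were at 0 in each GF library and 4 to 10 in each ABX library; Mmp9, a neutrophil protease, was at 0 in all GF libraries. The summed level was 166 to 380.1 CPM in GF and 64.7 to 196 CPM in ABX libraries at ICH day 3, with overlap, and 232 to 895 CPM against 84.1 to 180.0 CPM in sham, without overlap. The list median was 7.33 at ICH day 3 and −0.19 in sham, and at ICH day 3 S100a8 stood at 54.7 ± 33.2 CPM in GF and 1.87 ± 2.71 CPM in ABX libraries (SD, n = 3 each). Monocyte markers summed to 2321, 1420 and 822 CPM in GF and to 18.8, 600.3 and 1127 CPM in ABX libraries, with overlap. Of 11 tested, 1 was higher (0.848% of all genes were).

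Itgam, which encodes the integrin CD11b of microglia, monocytes and neutrophils (chromosome 7, 128062640 to 128118491, plus strand), was among the higher genes. It stood at 112, 94.4 and 69.4 CPM in GF and at 2.94, 0.40 and 13.9 CPM in ABX libraries, 4.00 ± 0.97 (edgeR adjusted p = 0.015), with SPF libraries at 133, 113 and 144 CPM. GF values were thus closer to SPF values and ABX values were low. Summed neutrophil markers, like Itgam and Il1b, were above the ABX libraries in all GF libraries. Within groups their order over the libraries was mixed. In GF, Itgam was lowest in the library with the lowest neutrophil sum, replicate 3, and Il1b in that with the highest, replicate 2. In ABX, Itgam, Il1b and S100a8 were all highest in replicate 3, which had the lowest neutrophil sum. The part of neutrophil RNA in these values was not tested.

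The rule for size took called genes with a mean of at least 50 CPM over the 6 libraries and no overlap, without predicted genes and pseudogenes. Within these limits the 12 largest rises were Supt20, Armcx3, Filip1l, Mynn, Zfp62, Azin1, Orc3, Fancl, Phf14, Zhx1, Herc4 and Ifi209, at 5.70 to 7.40 on the log2 scale. The median of all 149 higher genes was 6.52, so larger rises were called outside these limits. Supt20, a subunit of a histone acetylation complex, stood at 126, 236 and 26.1 CPM in GF and at 0.52, 3.01 and 3.91 CPM in ABX libraries (5.70 ± 1.00, edgeR adjusted p = 0.00208). Azin1, which stabilises ornithine decarboxylase, stood at 117, 277 and 209 CPM against 1.09, 0.87 and 3.10 CPM (6.90 ± 1.39, edgeR adjusted p = 0.00524). Ifi209, an interferon-inducible DNA sensor family member, stood at 654, 63.0 and 271 CPM against 1.897, 0.36 and 9.58 CPM (6.38 ± 1.91, edgeR adjusted p = 0.0439). In each of the 3 the GF libraries spanned a wide range and the ABX libraries were near absence, while SPF libraries lay between 41.5 and 167 CPM for Ifi209 and between 60.9 and 107 CPM for Supt20. Mynn, Zfp62 and Zhx1 are zinc finger genes, Orc3 is part of the origin recognition complex, and Fancl and Herc4 are ubiquitin ligases.

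The 12 largest falls by the same rule, Rufy1, Saal1, Lclat1, Wdr11, Tbc1d10a, Wdcp, Mtg2, Ice2, Rbm42, Gas2l3, Adgb and Gbp4, all had 0 counts in every GF library, so only bounds can be given. Lclat1, an enzyme that remodels cardiolipin, stood at 461, 113 and 135 CPM in ABX libraries, at least 3881-fold higher than GF against a floor of 3 counts per library. The ABX level of Wdr11, a trafficking protein, rested on 1 library, at 644, 0.22 and 1.16 CPM. So did that of Tbc1d10a, Wdcp, Mtg2, Ice2, Gas2l3 and Adgb, with the other ABX libraries at no more than 2.78 CPM, which makes 7 of the 12. The calls need not rest on it: Mtg2 was called without each of the 6 libraries in turn, while Ice2, Gas2l3 and Adgb were not called without ABX replicate 1. ABX replicate 1 was the highest library for each of the 12.

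The smallest adjusted p-values belonged to genes that were near absence in all GF libraries and present in all ABX and SPF libraries. Bfar, a ubiquitin ligase of the endoplasmic reticulum, stood at 0.29, 0.19 and 0.11 CPM in GF, at 331, 113 and 215 CPM in ABX and at 85.4, 69.9 and 65.0 CPM in SPF libraries, −10.12 ± 0.93 (edgeR adjusted p = 1.27e-06). Sqstm1, the autophagy receptor p62, stood at 0.51, 1.82 and 0.71 CPM against 511, 172 and 86.7 CPM, −7.98 ± 0.96 (edgeR adjusted p = 4.37e-05). Bfar was called with limma voom too (adjusted p = 0.0047), and neither gene was called in the 6 libraries alone.

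Of the energy and protein synthesis genes below, those called were all lower in GF. Of 20 nuclear genes of oxidative phosphorylation, 3 were lower, Uqcrc1 and Atp5b among them, against 5.82% of all genes, and 0 were higher. Of genes at 100 to 1000 CPM 6.44% were lower, and of those over 1000 CPM 13.6%. The list median was −0.46, close to that of all genes. Atp5b, the catalytic chain of ATP synthase, stood at 82.6, 415 and 296 CPM in GF and at 2184, 677 and 879 CPM in ABX libraries (−2.24 ± 0.57, edgeR adjusted p = 0.0204). Of 16 glycolysis genes, 1 was lower, close to the 5.82% of all genes. It was Gpi1, which converts glucose 6-phosphate, at 0.34, 6.90 and 0.17 CPM against 1236, 101 and 149 CPM (−7.65 ± 1.46, edgeR adjusted p = 0.00393). Of 20 ribosomal protein genes, 2 were lower, against 5.82% of all genes, a share between those of genes at 100 to 1000 CPM and over 1000 CPM. They were Rps2 at −2.17 ± 0.46 and Rplp0 at −1.83 ± 0.47 (edgeR adjusted p = 0.00651 and 0.0209), genes with many processed copies. The median of the ribosomal list, −0.31, did not lie below that of all genes. Atp5b, Rps2 and Rplp0 were not called with GC offsets, and the medians of the oxidative phosphorylation and ribosomal lists were −0.03 and 0.06 in the 6 libraries alone.

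Genes that sense or use short-chain fatty acids, which bacteria make, were looked at because both groups lack a normal flora. The receptor genes Ffar2 and Ffar3 had 0 counts in all 6 libraries and were not tested. Hcar2, a receptor for butyrate and hydroxybutyrate, stood at 131, 0.36 and 200 CPM in GF and at 0.95, 98.2 and 15.04 CPM in ABX libraries and overlapped, 1.54 ± 1.49 (edgeR adjusted p = 0.564). Slc16a1, a monocarboxylate transporter, was the 1 of 11 genes called (0.848% of all genes were higher). It stood at 29.3, 58.3 and 83.8 CPM against 0.47, 2.92 and 1.52 CPM (5.12 ± 1.48, edgeR adjusted p = 0.0382), and it was called under 6 of 15 other settings. Of 14 histone acetylation enzymes 0 passed.

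Several calls named above were lost when 1 library was left out, in the edgeR fit over the remaining ones. Leaving out a library also makes its group smaller. Grn, Ctsz and Sparc, among others, were lost without any of several libraries of both groups, so their calls do not rest on 1 library alone. Without ABX replicate 1, C1qa, Sparc, Ctsa, Laptm5, Ctsz, H2-K1, Atp5b, Uqcrc1, Slc16a1, Ifi209, Herc4, Phf14, Zhx1, Adgb, Gas2l3, Gbp4 and Ice2 were not called. Without ABX replicate 2, Slc16a1 and Ifi209 were not called, and without ABX replicate 3, Grn, Ctsz, Stat2 and Slc16a1 were not. Without GF replicate 1, Grn, Ctsa, Laptm5, Sparc, Ctsz, H2-Q7, Atp5b, Stat2, Ifi209, Adgb, Gas2l3 and Gbp4 were not called. Without GF replicate 2, Grn, Sparc, Ctsz, H2-K1, H2-Q7, Stat2 and Gbp4 were not called. Without GF replicate 3, C1qa, Sparc, Ctsa, Laptm5, Ctsz, H2-K1, H2-Q7, Rplp0, Atp5b, Stat2, Slc16a1, Ifi209, Adgb, Gas2l3 and Gbp4 were not called. The direction of these genes stayed the same without each library, except for Stat2. With GC offsets over all libraries, Hexa, Lgmn, Laptm5, Grn, Ctsa, Ctsz, Cd68, C1qa, Csf1r, Sparc, H2-K1, Atp5b, Rps2, Rplp0, Slc16a1, Ifi209 and Stat2 were not called.

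**Figure D4:**
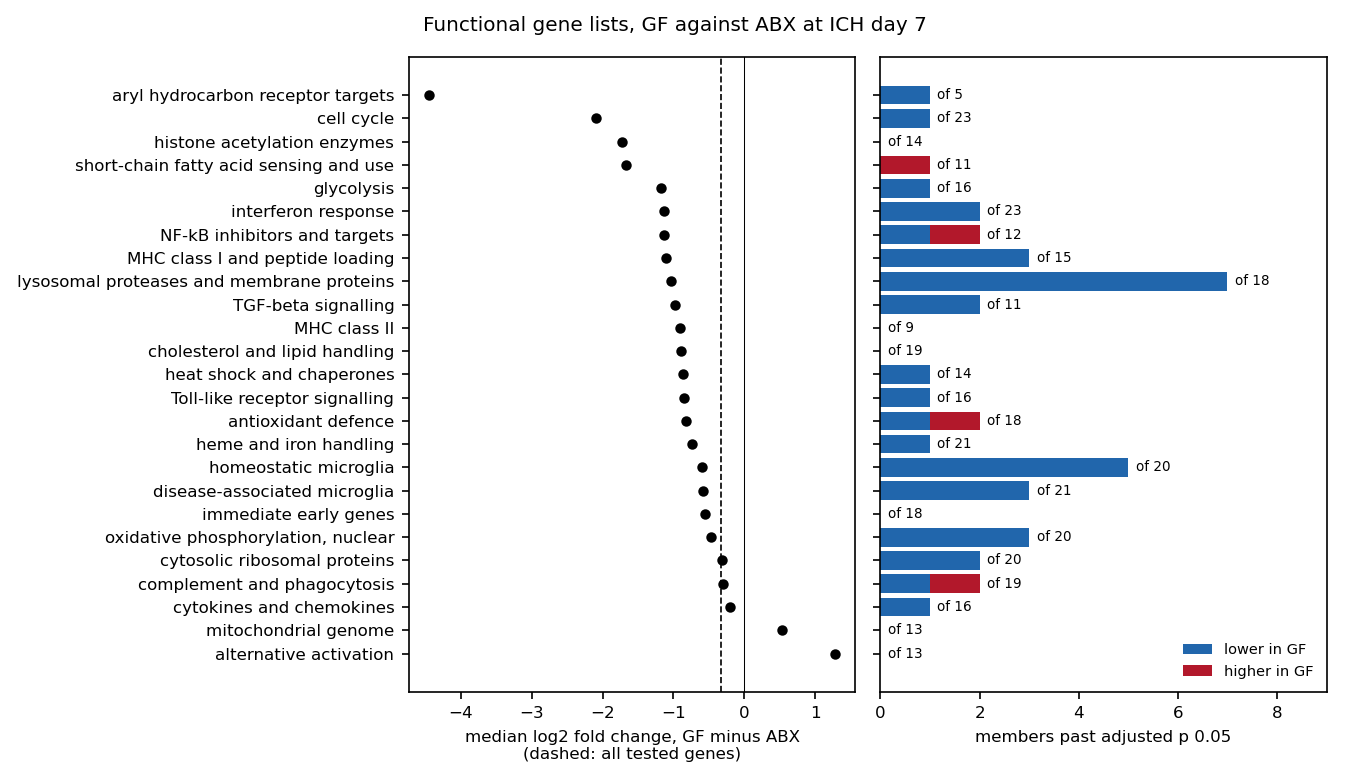
Left, the median log2 fold change (GF minus ABX) of each functional list, with genes at 0 counts in 1 group set to their bound and a dashed line at the median of all tested genes, −0.33; right, the members called lower (blue) and higher (red) of those tested. Lysosomal genes hold 7 calls of 18 and homeostatic genes 5 of 20, all lower (5.82% of all genes were), while the lists at both ends hold few calls.

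Whether the same difference was present without a bleed or earlier was asked from the GF and ABX libraries of sham surgery and of ICH day 3. At ICH day 3, 0 genes were called (0%), with 754 at an unadjusted p below 0.05, while DESeq2 called 667 and limma voom 188. In sham, 1 gene was higher (0.00569%) and 0 were lower (0%), with 928 at an unadjusted p below 0.05. That gene was Apoe, at 3.45 ± 0.51 (edgeR adjusted p = 0.00951), with GF sham libraries at 8090.2, 2945 and 2853 CPM and ABX sham libraries at 357, 459 and 451 CPM. The sham count was 0 without GF sham replicate 1, without any 1 of the 3 ABX sham libraries or without GF sham replicates 1 and 2 together, and 31 without GF sham replicate 3.

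The change of the difference itself was tested by interaction terms, which share the day 7 libraries. GF and ABX libraries had 14146 to 16931 detected genes at ICH day 3 and 9185 to 14221 at ICH day 7. Their GC gradients were 0.53 to 1.52 and −2.76 to −0.67. Over abundant genes, the rank correlation of GC content with the GF minus ABX fold change was 0.35 at ICH day 3 and −0.385 at day 7. It was −0.45 for the day 3 interaction, and the part of these differences was not tested. Relative to day 3, it was higher for 23 genes (0.131%) and lower for 407 (2.32%), and relative to sham higher for 52 (0.296%) and lower for 702 (3.99%). The fits of only the libraries concerned called 1 gene each. The day 3 count ranged from 29 without ABX ICH day 3 replicate 3 to 893 without GF ICH day 7 replicate 2, and the sham count from 158 without ABX sham replicate 3 to 1301 without GF ICH day 7 replicate 2.

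For Ctsb the GF minus ABX difference was 0.73 ± 0.33 in sham, 0.18 ± 0.33 at ICH day 3 and −2.20 ± 0.34 at ICH day 7. Ctsb means were 8184 ± 4372 CPM in GF sham and 4928 ± 449 CPM in ABX sham, then 15481 ± 1170 CPM and 13624 ± 4213 CPM at ICH day 3 (SD, n = 3 each). The day 7 difference was lower than that at day 3 by −2.38 ± 0.47 (edgeR adjusted p = 0.0117) and lower than that in sham by −2.93 ± 0.47 (edgeR adjusted p = 0.00137). Ftl1 changed alike, by −2.07 ± 0.53 and −2.80 ± 0.54 (edgeR adjusted p = 0.038 and 0.00563), and so did Cx3cr1, by −2.48 ± 0.63 and −2.79 ± 0.63 (edgeR adjusted p = 0.0364 and 0.0139). Lgmn passed against sham only, by −1.91 ± 0.45 (edgeR adjusted p = 0.0161), and stood at −1.57 ± 0.45 against day 3 (edgeR adjusted p = 0.0627). Cd68 passed neither test (edgeR adjusted p = 0.0717 and 0.0948). Of the lysosomal list, 3 of 18 were lower against day 3 (2.32% of all genes were). Against sham 9 of 18 were lower (3.99% of all genes were), and 0 were higher in both tests.

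**Figure D5:**
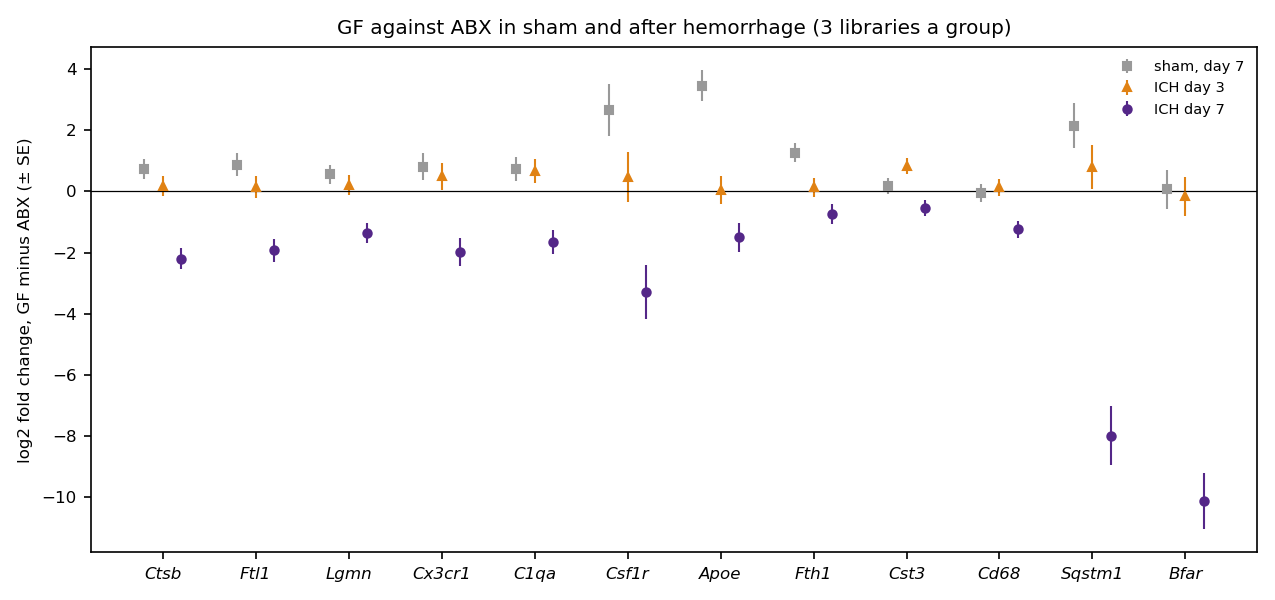
Log2 fold change (GF minus ABX, ± SE) of 12 genes in sham at day 7 (squares), at ICH day 3 (triangles) and at ICH day 7 (circles), from 3 libraries a group. The 12 genes were all called lower at ICH day 7 or in an interaction that uses the same day 7 values. That every gene shown lies below 0 at ICH day 7 thus largely follows from the choice (Cst3, not called there, turned to 0.50 with GC offsets). Sham and day 3 values lie mostly at or above 0, with Apoe at 3.45 in sham. Genes without such a call, such as B2m and P2ry12, are not shown.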

How the data were processed

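Per the labels' protocols, cDNA was amplified from very little RNA (SMART-Seq v4) and read as pairs on an Illumina NovaSeq. Per the submitters' processing notes, cutadapt 1.9, HISAT2 2.0.4, StringTie 1.3.4d and edgeR were used with mm10; annotation, strand setting and multi-mapping are not given in the sources used here. The deposited values are whole-number read counts per gene, without normalization by the authors. GENCODE M21 gave symbols to 52073 of 56691 genes; the other 4618 hold 1.27% of counts.

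Members and gene lists were chosen with earlier results of these data known. filterByExpr kept 17573 genes (99.9% of counts) and set aside 39118. TMM scaling (0.476 to 0.882 for the 6 libraries) and the robust quasi-likelihood fit of edgeR 4.0.16 (R 4.3.3) over 9 group means gave 5 contrasts, with Benjamini-Hochberg adjustment over all genes and a common biological coefficient of variation of 1.54 (1.93 in the 6 libraries alone). SE is the fold change over the root of F. The script was tested on simulated data. Bounds use 3 counts per library.

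Genes were named by rule: the 12 largest rises and falls with adjusted p below 0.05, a mean of at least 50 CPM over the 6 libraries and no overlap, without predicted genes and pseudogenes (filled, where fewer passed, from genes of at least 100 CPM); up to 3 members per list with the smallest adjusted p; 20 fixed genes; and the 5 smallest adjusted p of each interaction. Other list members that are named, such as Ctss, Tyrobp, Gpr34, Ifit2 and Mmp9, were chosen after their values were seen. Replicate numbers recur in both groups, but no label pairs them. Alternatives were DESeq2 1.42.0, limma 3.58.1 voom, other scalings and filters, GC offsets (96% of genes had GC content), fewer libraries and a replicate block. Leaving out GF sham replicates 1 and 2, TMMwsp scaling, and 6 libraries with a 100 CPM minimum were added after seeing the data. Values of a few genes are not reported here.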

Additional observations from a re-analysis of the deposited data

Results flagged for a closer look

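The GF minus ABX difference at ICH day 7 differed from that at ICH day 3 or in sham for these genes, by interaction terms of the edgeR fit; values are the day 7 difference minus the other one on the log2 scale, and all rest on the same 3 GF and 3 ABX libraries at day 7. The signs are all negative. GF and ABX libraries at day 7 had lower GC gradients than those at day 3 and mostly fewer detected genes. The part of this in the values was not tested. Relative to day 3 they were −2.38 for Ctsb, −2.33 for C1qa, −2.07 for Ftl1, −2.48 for Cx3cr1 and −1.38 for Cst3 among abundant genes, with edgeR adjusted p from 0.0117 to 0.043. They were −9.95 for Bfar, −10.71 for Liph, a lipase, −10.12 for Sp110, an interferon-inducible nuclear body protein, −8.68 for Yif1b, a Golgi protein, and −8.78 for Sqstm1 among genes near absence in GF day 7 libraries.

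Relative to sham they were −2.93 for Ctsb, −1.91 for Lgmn, −2.40 for C1qa, −2.80 for Ftl1, −2.79 for Cx3cr1, −5.92 for Csf1r, −4.96 for Apoe and −2.01 for Fth1. For the genes near absence they were −10.18 for Bfar, −11.51 for Liph, −11.02 for Sp110, −9.34 for Yif1b and −10.12 for Sqstm1. The Apoe value combines a call in sham, at 3.45, with a day 7 difference that did not pass, at −1.50. GF sham replicates 1 and 2 had 10325 and 11925 detected genes, against 18408 in replicate 3, and their part in the sham values was not tested.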

How the results depend on the processing

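The calls at ICH day 7 were fewer or more as follows (higher, lower): DESeq2 1703 and 3557, limma voom 3 and 53, no filter on low counts 99 higher, genes of at least 100 CPM 30 and 122 of 1656, only the 6 libraries 0 and 1, both restrictions together 0 and 0, replicate block 74 and 681, without GF sham replicates 1 and 2 289 higher, and leaving out each library 62 to 384 and 619 to 1331. DESeq2 size factors, GC offsets and TMMwsp kept both counts within 1.5 times, and their fits shared 1146, 922 and 1120 of the 1172 calls. The calls lost with GC offsets include many abundant genes, among them 6 of the 7 lysosomal ones, 3 of the 5 homeostatic ones and Cd68. The median of all genes moved to −0.29 with TMMwsp, −0.72 with voom and 0 in only the 6 libraries, and ranged from −0.98 without GF replicate 2 to 0 without ABX replicate 3 on leaving out each library. At ICH day 3, DESeq2 called 667 and voom 188. In sham, DESeq2 called 812, voom 3, and DESeq2 size factors, only the sham libraries, GC offsets and the fit without GF sham replicates 1 and 2 (an alternative chosen after seeing the data, as were TMMwsp and both restrictions together) called 0, with 0 to 31 on leaving out each library. The interactions gave 3772 and 4485 with DESeq2, 37 and 17 with voom, 55 and 120 at 100 CPM, 1 and 1 with only their libraries, 230 and 412 with the replicate block, and 29 to 893 and 158 to 1301 on leaving out each library; the day 3 interaction gave 769 without the 2 GF sham libraries. Same-numbered GF and ABX deviations correlated at −0.01, 0.02 and −0.02. With 3 libraries a group this cannot tell whether the numbers pair the samples, which the labels do not say. The GC gradient difference was −3.93 at a minimum of 10 CPM. Across 1649 abundant genes, which are not independent replicates, the rank correlation between GC content and fold change went from −0.385 to 0.246 with the offsets. The offsets thus overshot in this contrast, which limits what calls lost and signs turned with them can show.

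Signs turned for genes that did not pass, and for Stat2. With GC offsets they were C1qb 0.11, Cst3 0.50, H2-Ab1 0.10, Tmem119 0.56, B2m −0.94, Gpr34 −0.72, mt-Atp6 −0.31 and P2ry12 −1.09. With voom they were Tnf −2.38, Hcar2 −0.40 and Tmem119 0.37. Tmem119, Spp1 and Ctss were at 0.20, 0.19 and 0.10 with genes of at least 100 CPM, 0.18, 0.26 and 0.13 in only the 6 libraries, and 0.23, 0.23 and 0.14 with both. P2ry12 was at −0.17 with DESeq2 and with its size factors. On leaving out each library, Stat2 ranged from −13.89 to 3.44, Fn1 from −1.21 to 7.54, Tnf from −8.96 to 4.26, Tmem119 from −0.84 to 0.69, B2m from −0.041 to 0.30, Spp1 from −0.37 to 0.028, Tyrobp from −0.022 to 0.22 and P2ry12 from −0.20 to 0.58. The cause was not tested. Ctsb, Ftl1, Olfml3, Cxcl16, Calr and Bfar kept their direction under all alternatives run. Counting error weighs most on low genes, and 844 of the lower genes lay under 1 CPM in all GF libraries (9913 of all 17573 tested genes did).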

Other observations

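T and NK cell markers summed to 9.39, 0.09 and 10.6 CPM in GF and to 48.3, 333 and 19.1 CPM in ABX libraries, without overlap, and 0 of 10 passed with a median of −2.49. Neuron markers summed to 0.25, 0.19 and 3.13 CPM against 16.4, 38.1 and 122 CPM, also without overlap, and 0 of 5 passed. Among oligodendrocyte markers 2 of 8 were lower, against 5.82% of all genes. The myelin gene Mbp stood at 0.84, 1.13 and 0.63 CPM in GF and at 2.42, 75.4 and 483 CPM in ABX libraries (−7.75 ± 1.59, edgeR adjusted p = 0.0057). Among astrocyte markers 2 of 8 were lower, against 5.82% of all genes. They were S100b and Clu, the latter at 0.11, 0.98 and 0.42 CPM against 448, 0.72 and 254 CPM, with overlap. Mki67, a marker of dividing cells, was the 1 of 23 cell cycle genes called lower, a share no higher than the 5.82% of all genes. It stood at 0, 0.0752 and 0 CPM against 0.57, 23.4 and 2.21 CPM.

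Transcripts of the mitochondrial genome were above 0 for 12 of 13 genes, with a median of 0.54 beside −0.44 for all genes and 0 called; mt-Atp6, a chain of ATP synthase, stood at 3785, 3711 and 7076 CPM in GF and at 2649.5, 2606 and 3365 CPM in ABX libraries, without overlap (0.76 ± 0.36, edgeR adjusted p = 0.202). With GC offsets the list median was −0.57. TGF-beta signalling had 2 of 11 lower, against 5.82% of all genes. Tgfbr2, its type II receptor, stood at 0, 0.73 and 0.63 CPM in GF and at 1.99, 128 and 11.6 CPM in ABX libraries (−6.69 ± 1.58, edgeR adjusted p = 0.013). Ski, a repressor of the pathway, stood at 0.13, 0.26 and 0 CPM against 264, 14.6 and 4.07 CPM. Alternative activation genes had 0 of 13 called and a median of 1.28; Chil3, a chitinase-like protein that the monocyte list also holds, stood at 346, 458 and 44.3 CPM in GF and at 0, 0 and 12.8 CPM in ABX libraries. The antioxidant gene Gclc, which starts glutathione synthesis, was higher at 5.78 ± 1.54 and the thioredoxin reductase gene Txnrd1 lower at −8.32 ± 2.02 (edgeR adjusted p = 0.0251 and 0.0155). Of these calls, Mki67, Tgfbr2, Gclc and Txnrd1 were lost without ABX replicate 2, S100b without ABX replicate 3, Gclc without ABX replicate 1, Clu, Mki67, S100b and Txnrd1 without GF replicate 1, S100b without GF replicate 2, and Clu, Gclc, Mki67 and S100b without GF replicate 3.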
